A study of Mus musculus with 12 samples.

Results

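The lymphoid genes described here are 8 genes of early B and T cell development: Ebf1, Rag1, Rag2, Ikzf1, Ikzf3, Dntt, Cd79a and Vpreb1, out of 21738 protein-coding genes in the mouse annotation. They were chosen by name as lymphoid genes, and their data are the listed peaks that overlap the promoter, the canonical transcription start site plus or minus 2 kb, or the gene body. They carried 62 of the 159554 peaks in the 12 deposited lists, and 48 of those 62 had a q of 0.05 or less within their own list.

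The libraries came from c-Kit+ cells of mouse bone marrow, labelled as haematopoietic stem and progenitor cells, with a genotype given as mock. All cells received a BAP1 retrovirus together with a second retrovirus carrying an ASXL1 construct or nothing, so the vector cells also carry added BAP1. In the ChIP-seq libraries, BAP1 or ASXL1 was precipitated from cells given the condensation-impaired mutant 10RA of ASXL1 (1-590) or ASXL1 (1-590) itself, a truncated protein of residues 1 to 590. In the first H2AK119ub CUT&RUN set the cells had been given 25RA, called condensation-defective, or 10RA, or ASXL1 (1-590), or empty vector. In the second set they had been given 36EQ or 34DN, called charge-neutralized, or ASXL1 (1-1067), a truncation of residues 1 to 1067, or empty vector. Each condition had 1 library, so no difference below has a replicate check, and no test between conditions was run. The libraries are named below by construct alone. The labels do not say whether animals were pooled or how many cells were transduced.

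H2AK119ub is histone H2A carrying a ubiquitin, placed by Polycomb repressive complex 1 and common at CpG-rich promoters of genes that are silent or poised. BAP1, bound by ASXL1, is the deubiquitinase that removes it. In stem and progenitor cells, Ikaros family factors and later EBF1 prime and then fix the lymphoid programme, the RAG proteins and terminal transferase assemble antigen receptor genes, and the surrogate light chain and CD79 carry the first receptor signals.

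The regions that recurred across libraries are shown by the stretch common to the libraries of the 1-590 set that listed them, read from the GRCm39 genome 5′ to 3′ along the strand of the gene, with every CpG in capitals. They were picked to show how far the marked regions differ in CpG content. The stretch upstream of the Ikzf3 start site (chr11:98436627-98436819, minus strand) lay under a peak in all 4 libraries of the 1-590 set and held 30 CpG in 193 bases. The stretch upstream of the Ebf1 start site (chr11:44507771-44507913, plus strand) also lay under a peak in those 4 libraries and held 8 CpG in 143 bases. The stretch in a distal intron of Ikzf1 (chr11:11713392-11713644, plus strand) is common to the 4 libraries of the 1-590 set, while the 1-1067 peak covers part of it, and held 2 CpG in 253 bases. The stretch in the Rag1 intron (chr2:101478549-101478848, minus strand) lay under a peak in 25RA, 10RA and 1-590, and held 3 CpG in 300 bases. The stretch in a Dntt intron (chr19:41019486-41019704, plus strand) lay under a peak in 25RA and 1-590, and held 5 CpG in 219 bases. The last stretch is the whole ASXL1 peak of the 1-590 library in the first part of Ebf1 (chr11:44509973-44510189, plus strand), with 1 CpG in 217 bases.
Ikzf3 start: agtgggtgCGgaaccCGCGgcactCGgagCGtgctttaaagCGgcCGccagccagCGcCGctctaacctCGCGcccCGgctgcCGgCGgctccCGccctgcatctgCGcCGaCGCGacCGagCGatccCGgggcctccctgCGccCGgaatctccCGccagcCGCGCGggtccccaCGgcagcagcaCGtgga
Ebf1 upstream: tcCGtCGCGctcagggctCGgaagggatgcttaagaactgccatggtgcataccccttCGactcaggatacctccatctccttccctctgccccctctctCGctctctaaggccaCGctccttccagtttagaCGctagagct
Ikzf1 distal intron: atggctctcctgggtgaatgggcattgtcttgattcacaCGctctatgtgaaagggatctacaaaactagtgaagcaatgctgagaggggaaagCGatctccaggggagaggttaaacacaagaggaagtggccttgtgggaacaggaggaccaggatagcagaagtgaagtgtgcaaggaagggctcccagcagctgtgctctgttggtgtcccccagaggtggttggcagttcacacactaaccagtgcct
Rag1 intron: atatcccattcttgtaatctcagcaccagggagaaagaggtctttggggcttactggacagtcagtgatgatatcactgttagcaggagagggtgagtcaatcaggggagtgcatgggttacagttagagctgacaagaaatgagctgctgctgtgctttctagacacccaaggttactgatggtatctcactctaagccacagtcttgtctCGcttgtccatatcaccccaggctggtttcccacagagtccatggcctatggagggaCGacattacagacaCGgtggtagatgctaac
Dntt intron: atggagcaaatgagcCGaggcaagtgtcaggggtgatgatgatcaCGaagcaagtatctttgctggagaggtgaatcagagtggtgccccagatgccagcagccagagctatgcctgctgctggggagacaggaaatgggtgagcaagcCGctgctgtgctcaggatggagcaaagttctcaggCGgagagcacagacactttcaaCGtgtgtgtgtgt
Ebf1 ASXL1 peak: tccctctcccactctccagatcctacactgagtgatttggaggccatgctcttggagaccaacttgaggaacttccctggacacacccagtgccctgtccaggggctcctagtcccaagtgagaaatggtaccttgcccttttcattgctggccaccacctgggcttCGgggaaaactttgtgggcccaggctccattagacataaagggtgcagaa

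In the H2AK119ub set built on 1-590, a promoter peak was listed at 6 of the 8 genes in 25RA (47.8%), 5 in 10RA (41.3%), 6 in 1-590 (55.2%) and 4 in vector (40.5%). The percentage in parentheses after each count of the 8 genes, here and below, is the share of all protein-coding genes listed in the same way in the same library. Ebf1, Ikzf1, Ikzf3 and Vpreb1 were listed in all 4 of these libraries, against 26.7% of protein-coding genes. Rag1 was listed in 25RA, 10RA and 1-590, and Dntt in 25RA and 1-590. Rag2 had a peak inside the gene but none at its promoter in that set, and Cd79a had no peak at the promoter or in the gene in any of the 12 lists. A promoter peak was missing from all 12 lists at 33.1% of protein-coding genes. The peaks of these genes were in unique sequence: the median 31-base word in every one of the 62 peaks occurs once in GRCm39, and the lowest share of single-copy words was 67.3%, in the Rag1 peak of the 1-1067 set's vector.

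**Figure D1:**
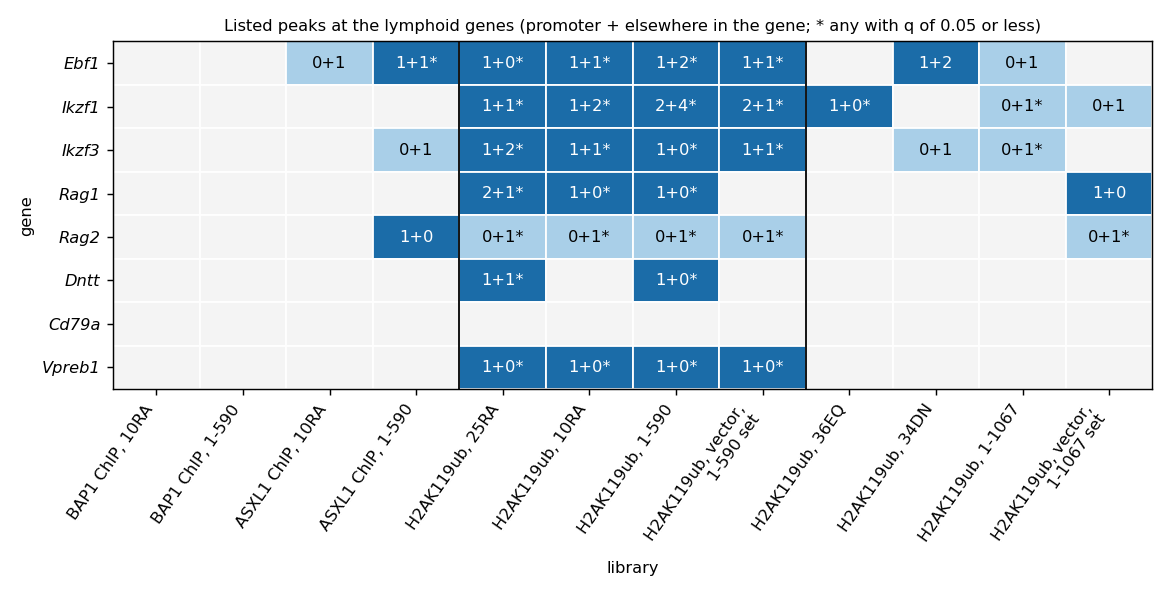
Listed peaks at the 8 genes (rows) in each of the 12 libraries (columns), given as promoter peaks plus peaks elsewhere in the gene, with a star where any has a q of 0.05 or less. Dark cells have a promoter peak and light cells a peak elsewhere in the gene. The 4 middle H2AK119ub columns are filled at most genes, the BAP1 columns are empty, and the Cd79a row is empty.

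Depth was read from a very low quantile of the local backgrounds in each list, the genome background, in fragments per base. It was 5.46 for 10RA and 4.24 for 1-590 in the BAP1 ChIP, and 3.04 for 10RA and 4.99 for 1-590 in the ASXL1 ChIP. In the CUT&RUN it was 1.86 in 25RA, 1.72 in 10RA, 2.06 in 1-590 and 0.908 in their vector, and 2.84 in 36EQ, 2.59 in 34DN, 2.17 in 1-1067 and 2.92 in their vector. At these backgrounds a peak needed 10 to 14 fragments in a ChIP library and 5 to 9 in a CUT&RUN library to be listed, and the lists give no value below that. The libraries are of whole cell populations, so a mark in few cells and a weak mark in all cells cannot be told apart. In the 1-590 set 86.0% to 96.0% of listed peaks had a q of 0.05 or less, against 22.8% to 32.7% in the 1-1067 set and 10.6% to 16.9% in the ChIP lists. The labels give the sets different batch names, so construct length and batch cannot be told apart, and values are compared within a set. In the lists titled 25RA, 34DN and 36EQ the peaks bear a different mutant code, and the names here follow the titles. Of 5 stem and progenitor genes, Kit, Cd34, Gata2, Meis1 and Hlf, promoter peaks were listed at 3 in 25RA, 3 in 10RA, 4 in 1-590 and 2 in vector, and at 0 in the 1-1067 set and the ChIP lists. Of 3 markers each of early B, T, myeloid and erythroid cells, 0 or 1 were listed in any library. These lists are too short to set against the shares of all genes given above, and peak lists hold no expression by which the cell type could be checked.

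Ikzf3, which encodes the Ikaros family factor Aiolos, is on the minus strand of chromosome 11 with its start site at 98436626. Its start site lay under a peak in every library of the 1-590 set, with summits at -108 bases in 25RA, -89 in 10RA, -36 in 1-590 and -66 in vector. The summit held 28 fragments in 25RA, 27 in 10RA, 45 in 1-590 and 29 in vector. Divided by each library's genome background, this came to 15.1 in 25RA (95% interval 10.0 to 21.8), 15.7 in 10RA (10.3 to 22.8), 21.9 in 1-590 (15.9 to 29.2) and 32.0 in vector (21.4 to 45.9). These exact Poisson intervals, and those below, cover counting error only. The vector value was the highest and the intervals of all 4 libraries overlapped. Promoter peaks of all genes ran in a similar order on this scale, with medians of 10.8 in 25RA, 10.5 in 10RA, 12.6 in 1-590 and 16.5 in vector.

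The Ikzf3 start site was in a CpG-rich window, with 77 CpG within 500 bases of it, at percentile 81.7 of protein-coding promoters. None of the 4 libraries of the 1-1067 set listed a peak there. The same listing over the 12 libraries, all 4 of the 1-590 set and no other, was shared with 14.6% of the other protein-coding genes. Further into Ikzf3, every H2AK119ub peak was in an intron and in 1 library alone. They lay 60757 and 16590 bases from the start site in 25RA, 56261 in 10RA, 23318 in vector of the 1-590 set, 75650 in 34DN and 12794 in 1-1067. Their summits held 7 to 18 fragments.

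Ikzf1, which encodes Ikaros and is needed for the lymphoid lineages, starts at 11635676 on the plus strand of chromosome 11. It had 2 regions that recurred, a broad one near the start site, mostly upstream, and a narrow one in a distal intron. The canonical start site itself lay under a peak only in vector of the 1-590 set. In the broad region the strongest summit held 18 fragments in 25RA, 20 in 10RA, 40 in 1-590 and 20 in vector. Per fragment of genome background it was 9.68 in 25RA (5.74 to 15.3), 11.6 in 10RA (7.10 to 17.9), 19.4 in 1-590 (13.9 to 26.5) and 22.0 in vector (13.5 to 34.0). The vector and 1-590 values were the higher pair and 25RA the lowest, and the intervals of 25RA and 1-590 still overlapped. The summits were at different places: at -222 bases in 25RA, -769 in 10RA, -1020 in 1-590 and -1060 in vector, so these values are not of 1 position. A second promoter peak of 24 fragments lay at 363 bases in 1-590, in an untranslated exon of the canonical transcript, and one of 19 fragments at -174 bases in vector.

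This promoter was among the richest in CpG, with 134 within 500 bases of the start site, at percentile 99.4. It was also listed in 36EQ of the 1-1067 set, at -1066 bases with 16 fragments and a q of 3.64%, close to the summit of the vector library of the other set. The listing over the 12 libraries, all 4 of the 1-590 set and 36EQ, was shared with 1.67% of the other protein-coding genes, among them Bach2 and Flt3 of the wider lymphoid list below.

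The distal Ikzf1 peak lay in an intron 77714 to 77845 bases from the start site, near the 3′ end of an 88.2 kb gene. It was listed in all 4 libraries of the 1-590 set and in 1-1067. Its summit held 17 fragments in 25RA, 11 in 10RA, 17 in 1-590 and 13 in vector. Scaled to the genome background, the summit reached 9.14 in 25RA (5.33 to 14.6), 6.39 in 10RA (3.19 to 11.4), 8.26 in 1-590 (4.81 to 13.2) and 14.3 in vector (7.63 to 24.5), with overlapping intervals throughout. In 1-1067 it held 18 fragments, 8.31 on that scale (4.92 to 13.1), and its fold of 4.53 ranked 157 of the 6310 peaks in that list. The local background there was 1.20 to 1.49 times the genome background in these 5 libraries, so this was a sharp peak on a low base, unlike the promoter peaks of Ikzf3 at 3.73 to 5.52 times. It held 2 CpG in the stretch printed above. Other Ikzf1 body peaks were in 1 library alone, 1 in 10RA at 29274 bases, 3 in 1-590 at 10664, 26248 and 83669 bases, and 1 in vector of the 1-1067 set at 10011 bases.

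**Figure D2:**
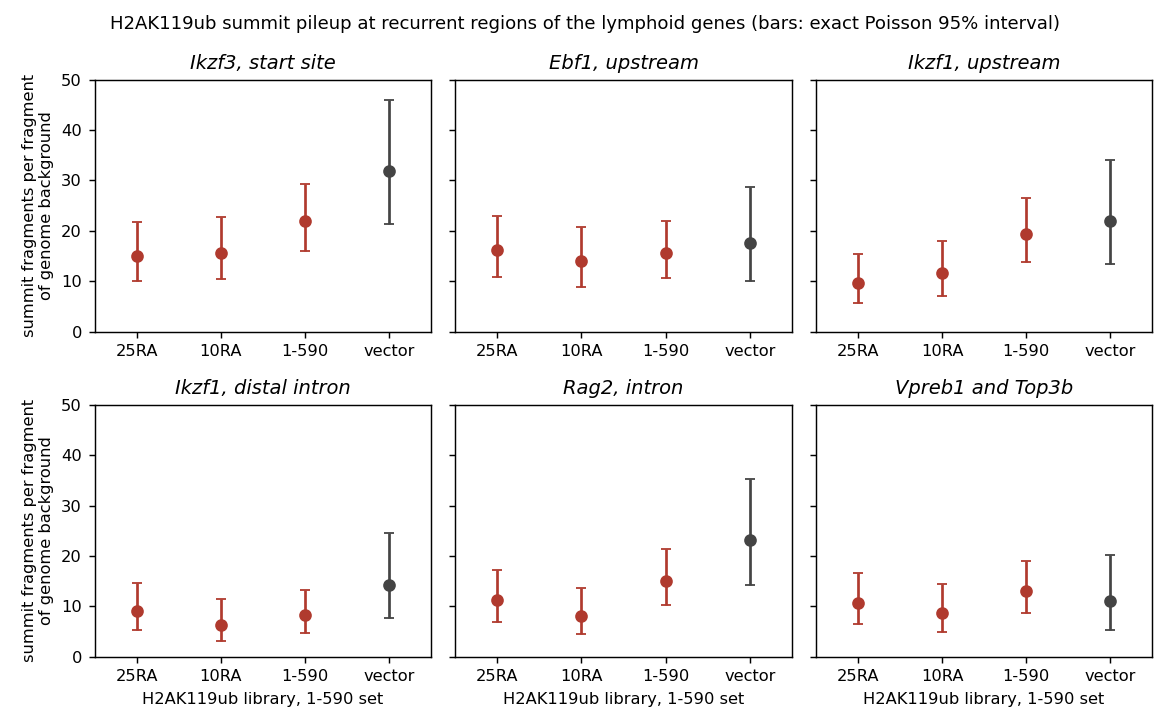
Summit fragments per fragment of genome background at 6 regions that recurred, in the 4 H2AK119ub libraries of the 1-590 set; points are single libraries, dark for vector, and bars are exact Poisson 95% intervals of the count. The vector point is highest at 5 of the 6 regions, all but Vpreb1 and Top3b, and at Ebf1 the 4 libraries lie between 13.9 and 17.6. Vector also had the highest median over promoter peaks of all genes on this scale.

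Ebf1 encodes the factor that commits progenitors to the B lineage, and its start site is at 44508138 on the plus strand of chromosome 11. A peak just upstream was listed in all 4 libraries of the 1-590 set, with summits at -285 bases in 25RA, -441 in 10RA, -283 in 1-590 and -327 in vector. It held 30 fragments in 25RA, 24 in 10RA, 32 in 1-590 and 16 in vector. Relative to the genome background the values were 16.1 in 25RA (10.9 to 23.0), 13.9 in 10RA (8.94 to 20.7), 15.5 in 1-590 (10.6 to 21.9) and 17.6 in vector (10.1 to 28.6). These 4 values were the closest together of the recurring promoter regions. The peak stood on a raised base, with a local background 4.38 to 5.53 times the genome background, and its fold over that base was 2.58 to 3.29. A start site of Gm37695, another annotated gene, lay inside the peak in each of these libraries. Ebf1 had 33 CpG within 500 bases of its start site, at percentile 42.4, fewer than the other 2 transcription factor genes.

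A second Ebf1 region lay in an intron at 2919 bases in 10RA and 3007 bases in 1-590, each with 22 fragments, and at 2630 bases in vector, with 11 fragments and a q of 15.2%. The vector peak overlapped that of 1-590 but not that of 10RA, and 25RA listed none. In 34DN of the other set, a peak of 12 fragments was listed at -751 bases, with a q of 23.3%, which a cut at a q of 0.05 would remove. The remaining H2AK119ub peaks of this 390.8 kb gene were in 1 library each, at 7473 bases in 1-590, at 10207 and 322897 bases in 34DN and at 328051 bases in 1-1067.

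Rag1 and Rag2 encode the recombinase that cuts antigen receptor genes, and sit tail to tail on chromosome 2. Rag1 starts at 101479877 on the minus strand, at the same base as the canonical start site of Iftap, and both genes lie within Iftap. A peak in the Rag1 intron was listed at 1268 bases in 25RA with 23 fragments, at 946 bases in 10RA with 17 and at 1140 bases in 1-590 with 15, and none was listed in vector. Set over the genome background, this made 12.4 in 25RA (7.84 to 18.6), 9.88 in 10RA (5.75 to 15.8) and 7.28 in 1-590 (4.08 to 12.01). The value was highest in 25RA and lowest in 1-590, with overlapping intervals. Thinned to the vector depth, these peaks would still be listed with a chance of 87.3% in 25RA, 59.0% in 10RA and 32.0% in 1-590, so the 1-590 peak, at a q of 2.88%, would be missed more often than not in a library as shallow as vector.

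25RA also listed a peak at the shared Rag1 and Iftap start site, at -77 bases with 24 fragments, and one of 11 fragments in the coding exon at 7294 bases, with a q of 8.22%. No other library listed either. In the 1-1067 set the vector library listed a peak of 16 fragments at -1101 bases, with a q of 15.5%, which did not overlap any peak of the 1-590 set. Rag1 had 12 CpG within 500 bases of its start site, at percentile 23.3.

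Rag2 starts at 101455063 on the plus strand, with 8 CpG within 500 bases of its start site, at percentile 16.5. No H2AK119ub library listed a peak at its promoter. An intron peak 4095 to 4238 bases into Rag2 was listed in all 4 libraries of the 1-590 set and in vector of the 1-1067 set. It held 21 fragments in 25RA, 14 in 10RA, 31 in 1-590 and 21 in vector, and 20 in the other vector. Scaled in the same way, the peak reached 11.3 in 25RA (6.99 to 17.3), 8.13 in 10RA (4.45 to 13.6), 15.1 in 1-590 (10.2 to 21.4) and 23.1 in vector (14.3 to 35.4). The vector value was the highest, and its interval did not overlap that of 10RA. Promoter peaks of all genes were also highest in vector on this scale, with a median of 16.5 against 10.5 in 10RA. In the other vector library it was 6.86 (4.19 to 10.6), with a q of 3.08%.

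That Rag2 intron peak coincided with start sites of Iftap transcripts on the opposite strand. Iftap has 37 annotated transcripts, 9 of which start at 101459378, a base that the peak covered in 1-590 alone. Of the 37, 2 started inside the peak in 25RA, 1 in 10RA, 23 in 1-590, 1 in vector and 1 in vector of the 1-1067 set. The summits were 57 bases from the nearest Iftap start in 25RA, 41 in 10RA, 35 in 1-590, 20 in vector and 17 in vector of the 1-1067 set. The peak is counted in the Rag2 body by position, and the lists cannot assign it to either gene.

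Dntt encodes terminal transferase, which adds bases at the junctions of antigen receptor genes, and starts at 41017714 on the plus strand of chromosome 19. An intron peak near the edge of the promoter window was listed at 1921 bases in 25RA and at 1887 bases in 1-590, with 22 fragments in each. The same values over the genome background were 11.8 in 25RA (7.41 to 17.9) and 10.7 in 1-590 (6.70 to 16.2), values that differ by less than their counting error. Neither 10RA nor vector listed it. At the vector depth it would be listed with a chance of 91.7% in 25RA and 82.7% in 1-590. A start site of C330026H20Rik, another annotated gene, lay inside this peak in 25RA and in 1-590. The lists cannot assign the peak to either gene. 25RA listed a further intron peak at 22859 bases with 21 fragments. Dntt had 14 CpG within 500 bases of its start site, at percentile 26.1.

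Vpreb1 encodes part of the surrogate light chain of the pre-B cell receptor. It is named Vpreb1a in the annotation used here, on the minus strand of chromosome 16 with its start site at 16687147. A peak was listed in all 4 libraries of the 1-590 set, with summits at -1533 bases in 25RA, -1642 in 10RA, -1615 in 1-590 and -1641 in vector. It held 20 fragments in 25RA, 15 in 10RA, 27 in 1-590 and 10 in vector. Over the genome background it reached 10.8 in 25RA (6.57 to 16.6), 8.72 in 10RA (4.88 to 14.4), 13.1 in 1-590 (8.64 to 19.1) and 11.0 in vector (5.28 to 20.3), with overlapping intervals throughout. Here vector was not the highest. The local background was 1.24 to 1.57 times the genome background, so the peak stood on a low base.

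That peak lay over the start of Top3b, a topoisomerase gene on the opposite strand whose canonical start site is at 16688645. Of 49 annotated Top3b transcripts, 31 started inside the peak in 25RA, 29 in 10RA, 31 in 1-590 and 26 in vector, and the summits were 1, 40, 58 and 41 bases from the nearest of them in that order. The sequence within 500 bases of the Vpreb1 start site held 7 CpG, at percentile 14.7, and no listed peak reached within 1 kb of it. A start of another annotated Vpreb1 transcript also lay inside the peak in each of these libraries. From the canonical start site, Vpreb1 is counted among promoter peaks by the width of the window.

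Cd79a, which encodes a signalling chain of the B cell receptor, starts at 24596740 on the plus strand of chromosome 7 and had no listed peak in 12 libraries. It is a short gene of 4.88 kb with 25 CpG within 500 bases of its start site, at percentile 37.0. Ebf1, with a percentile not far above it, was listed in all 4 libraries of the 1-590 set.

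**Figure D3:**
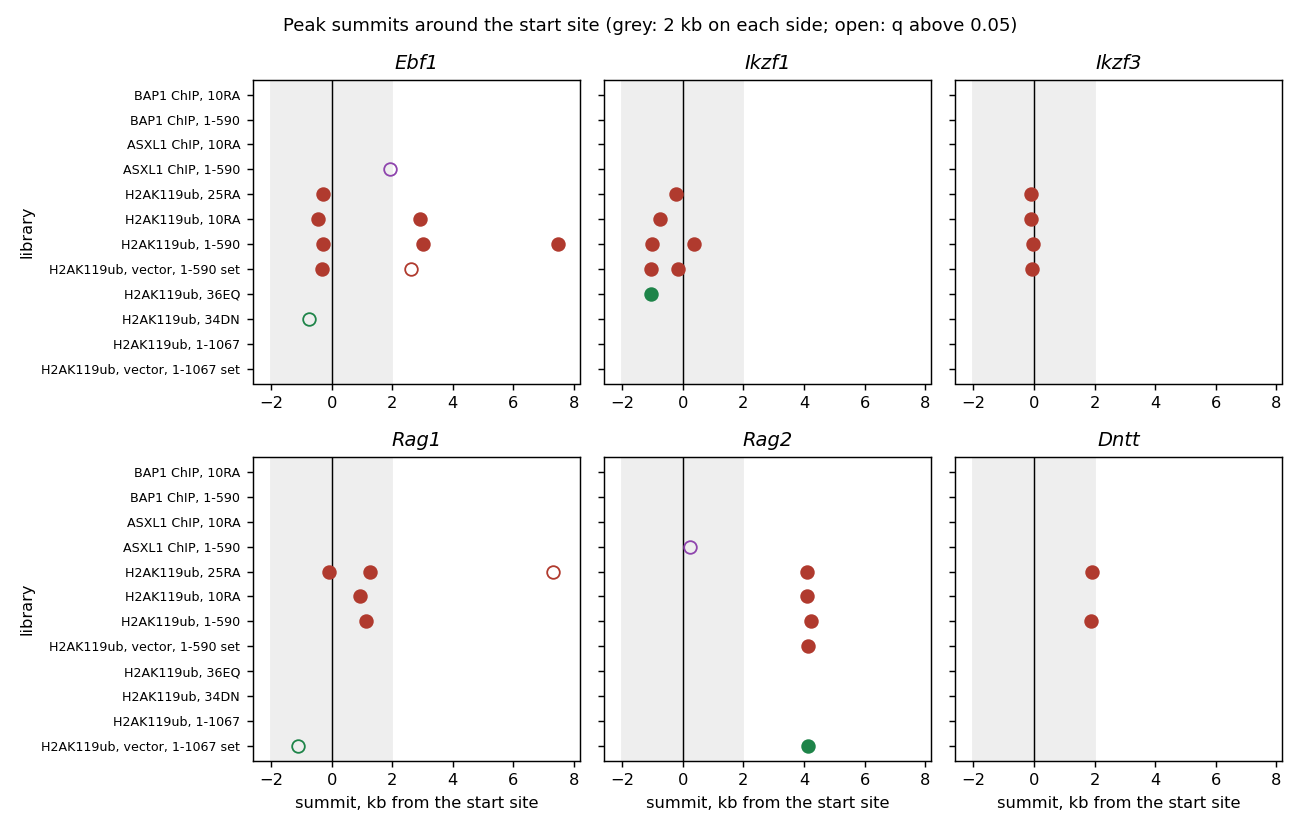
Summits of listed peaks around the start site of 6 of the genes, in kb along the strand of the gene, 1 line per library; the grey band is 2 kb on each side and open circles have a q above 0.05. The Ikzf3 summits stack at the start site, those of Ikzf1 spread upstream, and those of Rag2 stack outside the band.

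Within the 1-590 set, the promoter listing of the 8 genes was compared in 6 pairs of libraries. 25RA had Rag1 and Dntt where vector did not, and no gene the other way, against 14.0% of protein-coding genes listed in 25RA and not in vector and 6.59% the other way. 10RA had Rag1 where vector did not, and no gene the other way, against 11.1% and 10.2%. 1-590 had Rag1 and Dntt where vector did not, and no gene the other way, against 17.8% and 3.03%. Rag1 and Dntt, the genes listed beyond vector, had 12 and 14 CpG within 500 bases of the start site and peaks in introns. In 25RA, Rag1 also had a peak at its start site, with 24 fragments. The 4 genes listed in vector were listed in every ASXL1 library of the set too.

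Among the ASXL1 constructs of that set, 25RA differed from 10RA at Dntt alone, listed in 25RA, against 13.8% of protein-coding genes listed in 25RA and not in 10RA and 7.31% the other way. 25RA and 1-590 listed the same 6 genes, while 5.53% of protein-coding genes were listed in 25RA and not in 1-590 and 12.9% the other way. 10RA lacked Dntt of the genes in 1-590, and had none that 1-590 lacked, against 18.4% and 4.53%. With each summit thinned to the depth of vector, the expected number of genes with a promoter peak was 5.33 in 25RA, 4.01 in 10RA and 5.03 in 1-590, against 4 in vector. With 1 library each, a gain or loss of 1 or 2 genes has no measured error.

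Gene bodies were listed with a peak at 6 of the 8 genes in 25RA (58.3%), 6 in 10RA (52.3%), 7 in 1-590 (62.3%) and 5 in vector (48.7%). The bodies held 12 peaks in 25RA, 9 in 10RA, 13 in 1-590 and 8 in vector, over 616.8 kb. Per 100 kb this was 1.95 in 25RA, 1.46 in 10RA, 2.11 in 1-590 and 1.30 in vector, beside 2.08, 1.70, 2.10 and 1.35 over the bodies of all protein-coding genes in the same 4 libraries. The density in these genes was thus near that of genes at large in each library, and the order of the libraries was alike.

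In the 1-1067 set a promoter peak was listed at 1 of the 8 genes in 36EQ, Ikzf1 (8.52%), 1 in 34DN, Ebf1 (6.96%), 0 in 1-1067 (9.21%) and 1 in vector, Rag1 (7.44%). These were 3 different genes, and 20.9% of protein-coding genes had a promoter peak in at least 1 library of the set. Of the 3 peaks, that of Ikzf1 in 36EQ had a q under 0.05. Ikzf1 was listed in 36EQ and not in vector, as were 6.02% of protein-coding genes, and Rag1 in vector and not in 36EQ, as were 4.94%. Ebf1 was listed in 34DN and not in vector, as were 4.81%, and Rag1 in vector and not in 34DN, as were 5.29%. 1-1067 listed none of them, and Rag1 was listed in vector and not in 1-1067, as were 4.74%. Between the constructs, Ikzf1 was listed in 36EQ and in neither 34DN nor 1-1067, against 5.59% and 5.27%, and Ebf1 in 34DN and in neither 36EQ nor 1-1067, against 4.03% and 4.27%.

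Body peaks in the 1-1067 set were listed at 0 genes in 36EQ (15.1%), 2 in 34DN (12.7%), 3 in 1-1067 (15.5%) and 2 in vector (14.0%). Per 100 kb the bodies held 0 peaks in 36EQ, 0.486 in 34DN, 0.486 in 1-1067 and 0.324 in vector. Over all protein-coding genes the density was 0.331, 0.273, 0.340 and 0.313 in the same order. The 3 genes in 1-1067 were Ebf1, Ikzf1 and Ikzf3, and its peak in the distal intron of Ikzf1 was the one that matched a region of the 1-590 set. Across all 12 libraries, ChIP included, the joined peaks made 33 regions, of which 24 were in 1 library, 1 in 2, 2 in 3, 2 in 4 and 4 in 5. Each ASXL1 peak made a region of its own, in 1 library. The 4 regions in 5 libraries were upstream of Ebf1, at the Ikzf1 promoter, in the distal Ikzf1 intron and in the Rag2 intron. In the Ebf1 region the 34DN peak, with a q of 23.3%, overlapped the peaks of 10RA and vector of the 1-590 set. It did not overlap those of 25RA or 1-590, so no base was common to all 5.

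No BAP1 peak was listed at the promoter or in the body of any of the 8 genes, in 10RA or in 1-590. Promoter peaks were rare in these libraries for all genes, at 0.552% of protein-coding genes in 10RA and 0.363% in 1-590, and 0.492% were listed in 10RA and not in 1-590 and 0.304% the other way. Body peaks were listed at 7.41% in 10RA and 4.77% in 1-590, and at 10.7% in either. The BAP1 lists held 4875 peaks in 10RA and 3572 in 1-590, and a count of 0 among 8 genes is near these shares. The labels give the antibody both as one to BAP1 or ASXL1 and as one to the HA tag of the added protein.

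ASXL1 promoter peaks were listed at 0 of the 8 genes in 10RA (0.455%) and at 2 in 1-590, Ebf1 and Rag2 (1.06%). Of all protein-coding genes, 0.386% were listed in 10RA and not in 1-590, 0.994% the other way and 1.45% in either. The Ebf1 peak, printed above, lay in an intron at 1918 bases with 17 fragments and a q of 7.32%, and its fold of 2.95 ranked 1664 of 8370. The Rag2 peak lay at 225 bases with 15 fragments and a q of 28.3%. Over the genome background they were 3.41 (1.98 to 5.45) and 3.004 (1.68 to 4.96), beside a median of 3.20 over all promoter peaks of that library. Neither passed a q of 0.05, and at the depth of 10RA the expected number of genes with such a peak was 1.10.

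ASXL1 body peaks were listed at 1 gene in 10RA (6.45%) and at 3 in 1-590 (11.0%), with 14.8% of protein-coding genes in either. These shares do not allow for gene length. The bodies held 1 peak in 10RA and 4 in 1-590, or 0.162 and 0.649 per 100 kb. Over the bodies of all protein-coding genes the density was 0.163 in 10RA and 0.297 in 1-590. Besides the promoter pair, 1-590 had a peak in Ebf1 at 386525 bases, near the 3′ end, with 18 fragments and a q of 4.19%, and one in Ikzf3 at 53612 bases with 16 fragments and a q of 13.8%. 10RA had one in Ebf1 at 94412 bases with 13 fragments and a q of 20.4%. None of the 5 ASXL1 peaks overlapped an H2AK119ub peak in any of the 8 libraries, as was usual: 213 of all 4584 ASXL1 peaks in 10RA (4.65%) and 469 of 8370 in 1-590 overlapped one. The nearest lay 457 bases away, between the ASXL1 peak at the start of Ebf1 and the Ebf1 intron peak of 1-590, and the one in Rag2 was 3586 bases from the nearest.

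The genes differed in the CpG content of the sequence around their start sites. Ikzf1 and Ikzf3 were above, and Ebf1, Cd79a, Dntt, Rag1, Rag2 and Vpreb1 below, the median of 43 CpG within 500 bases of a start site. Over all protein-coding genes, promoters with a peak had a median of 62 CpG in 25RA, 63 in 10RA, 63 in 1-590 and 65 in vector, and those without had 16, 19, 12 and 19 in the same 4 libraries. Ikzf1 and Ikzf3 were above the median of listed promoters, and Ebf1, listed in all 4 libraries, was between the medians. Vpreb1 with 7 CpG was listed in all 4, Rag1 with 12 in 3 and Dntt with 14 in 2, although these counts are at or near the medians of promoters without a peak or below them. The Vpreb1 peaks lay outside those 500 bases, over the Top3b start, and were themselves CpG-rich, with 41 CpG in vector to 47 in 25RA and 1-590. The Rag1 intron peaks held 3 CpG each, and the Dntt peaks in the promoter window 9 in 25RA and 5 in 1-590. In the 300 bases around each start site, 250 before and 50 after, the Ikaros core letters TGGGAA, searched on both strands, occurred in Rag1 alone and in 25.9% of protein-coding promoters. The palindromic EBF1 consensus occurred in none of the 8 and in 1.05%. The E-box letters CAGNTG occurred in Rag1, Rag2, Ikzf3, Cd79a and Vpreb1 and in 49.1%. These are matches of letters, and no binding of Ikaros, EBF1 or an E protein was measured.

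Other genes of B and T cell development were taken from a wider list of 42. In the 1-590 set a promoter peak was listed at 17 of 42 in 25RA, 18 in 10RA, 23 in 1-590 and 13 in vector. These counts are 40.5% of the list in 25RA, 42.9% in 10RA, 54.8% in 1-590 and 30.95% in vector, beside 47.8%, 41.3%, 55.2% and 40.5% of all protein-coding genes in the same 4 libraries. In the 1-1067 set the list had 4 genes in 36EQ (9.52% of the list, beside 8.52% of all protein-coding genes), 3 in 34DN (7.14% beside 6.96%), 6 in 1-1067 (14.3% beside 9.21%) and 0 in vector (beside 7.44%). No ChIP library listed one, where 0.363% to 1.06% of all protein-coding genes were listed. Most of these shares were near those of all genes. Of the 42, 8 (19.05% of the list, beside 26.7% of all protein-coding genes) were listed in each of 25RA, 10RA, 1-590 and vector of the 1-590 set: Bach2, Ikzf4, Flt3, Cd24a, Notch1, Id2, Id3 and Lck. Bach2 and Ikzf4 encode transcription factors, the second of the Ikaros family, Flt3 a cytokine receptor of lymphoid progenitors, Notch1 the receptor that directs the T lineage, Id2 and Id3 inhibitors of E proteins, and Lck a T cell kinase. Cd24a and Lck had the same listing over 12 libraries as Ikzf3 and Vpreb1, and Bach2 and Flt3 the same as Ikzf1.

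The fold at the Flt3 promoter was 4.19 in 25RA, 4.30 in 10RA, 4.49 in 1-590 and 4.76 in vector, each within its own list, and 2.82 with a q of 7.04% in 36EQ. Tcf3, which encodes E proteins, was listed in 1-590 with a fold of 5.54 and in 36EQ, 34DN and 1-1067 with folds of 3.95, 3.86 and 3.31, each with a q under 0.05. It was not listed in 25RA or 10RA, nor in either vector library. Of the other genes listed in the 1-1067 set, Spi1, Ikzf4, Notch1, Id3 and Cd8a were in 1-1067, Bach2, Flt3 and Notch1 in 36EQ and Id2 and Id3 in 34DN. Among these listings Notch1 in 36EQ had a q of 3.74%. All the others were above a q of 0.05, from 6.91% for Cd8a in 1-1067 to 28.7% for Bach2 in 36EQ. A promoter peak was missing from all 12 lists at 13 of the 42, 30.95% of the list beside 33.1% of all protein-coding genes. They include the B cell genes Pax5, Cd79b, Igll1, Btk and Ms4a1 and the T cell genes Cd3d, Cd247, Cd4, Ptcra and Zap70. Cd79b encodes the partner chain of Cd79a.

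**Figure D4:**
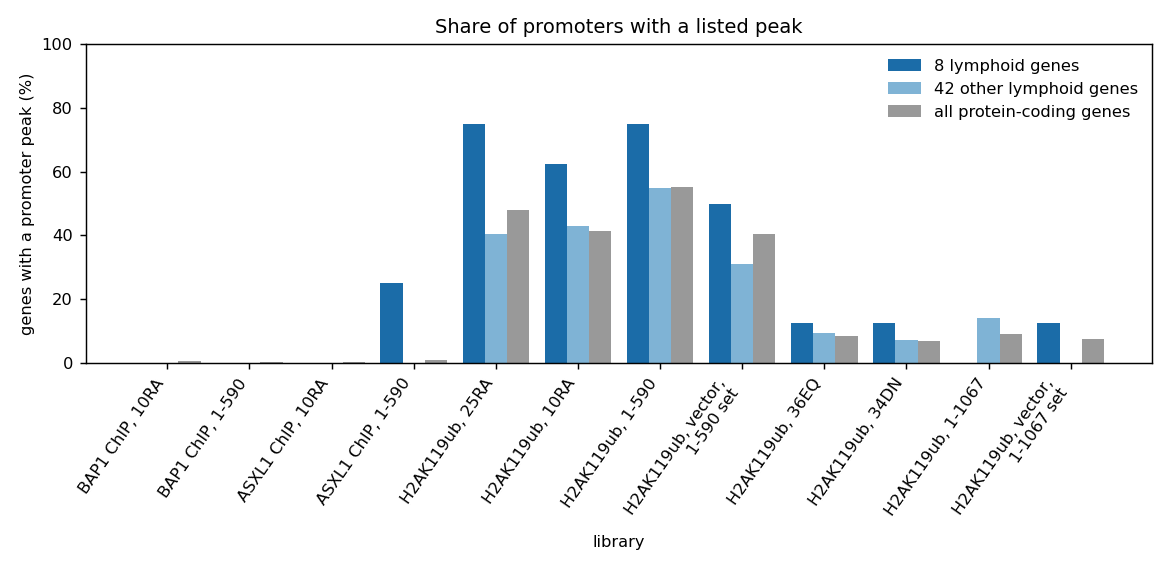
Percent of genes with a listed promoter peak in each library, for the 8 lymphoid genes, the 42 other lymphoid genes and all 21738 protein-coding genes. The bars of the 42 genes are below those of all genes in 25RA and vector of the 1-590 set, and the bar of the 8 genes moves by a wide step with each gene.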

How the data were processed

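The 12 deposited lists hold 1 peak call per library, 1 library per condition. Per the submitters' processing notes, the peaks were made on mm39 with MACS3 3.0.3, Picard, SAMtools, Bowtie2 2.5.4 and fastp 0.24.0 among the tools. The authors' lists give a fold (a ratio of summit fragments plus 1 to local background plus 1), the -log10 of p and of q for a summit within its library, and a deposited score made from that p. Use of a control library is not given in the sources used here. Per the labels an E. coli spike-in normalized the CUT&RUN libraries, and how is not stated.

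Whole summit fragments and local backgrounds were recovered from fold and p for 100% of peaks in each list. Depth is the 0.001 quantile of the local backgrounds of a list. To match depth within a batch, the chance that a peak passes p of 0.001 after thinning was computed from the binomial distribution. This treats the listed summit as the true level.

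Peaks were joined to GENCODE vM39 genes on GRCm39 (chromosomes 1 to 19, X and Y) by an overlap of 1 base. Of the 8 symbols, 7 matched directly and Vpreb1 matched Vpreb1a by 1 exact match of its RefSeq promoter. Coordinates count from 1. Python 3.11.15, pandas 2.3.3, scipy 1.17.1 and pysam 0.24.0 were used, and functions were tested on simulated data. The 8 genes, the 42-gene list and the markers were chosen with earlier results of these data known. Other genes were named by rule: genes sharing a start site with a promoter window, and genes of the wider list with peaks in all 4 libraries of the 1-590 set, in any library of the 1-1067 set or ChIP, or with the listing of a member. The 13 genes listed nowhere were named in part, chosen after their values were seen. C330026H20Rik and Gm37695 were named because they start inside a listed peak, and not every such gene was named. Alternatives were promoter windows of 1 and 5 kb, every annotated start site, q of 0.05 or less, summit position, bodies without the promoter window, and matched depth.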

Additional observations from a re-analysis of the deposited data

How the results depend on the processing

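With a promoter window of 1 kb on each side, the number of the 8 genes with a promoter peak was 1 for ASXL1 in 1-590. It was 3 for H2AK119ub in 1-590, since Rag1, Dntt and Vpreb1 left the window there. In the 1-590 set of H2AK119ub, 1-590 minus vector became 0 genes where the 2 kb window gave 2. For 10RA minus 1-590 it became 1 gene where the 2 kb window gave -1. The 25RA count minus vector went from 2 to 1, and 10RA minus vector stayed at 1. The 25RA count minus 10RA went from 1 to 0, and minus 1-590 from 0 to 1. With 5 kb the number of genes with a promoter peak was 2 in 36EQ, 1 in 1-1067 and 2 in vector of the 1-1067 set. With every annotated start site it was 1 in 1-1067. At a q of 0.05 or less it was 0 for ASXL1 in 1-590, 0 in 34DN and 0 in vector of the 1-1067 set. At matched depth it was 1.10 for ASXL1 in 1-590. Peaks in gene bodies at that q were 0 for ASXL1 in 10RA, 1 for ASXL1 in 1-590, 0 in 34DN and 1 in vector of the 1-1067 set. Without the promoter window they were 2 for ASXL1 in 1-590, and 6 in 25RA, 5 in 10RA, 7 in 1-590 and 4 in vector of the 1-590 set. At matched depth they were 2.41 for ASXL1 in 1-590 and 1.94 in 34DN. Requiring the summit in the promoter window changed none of the 12 promoter counts. Requiring it in the gene gave body counts of 11 in 25RA, 7 in 10RA, 11 in 1-590 and 6 in vector of the 1-590 set, within 1.5 times the counts above, and changed no other body count. No paired analysis was possible because each condition has 1 library and the labels give no replicate numbers; for the same reason no library could be left out of a group.

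The lists hold no value for a gene without a peak. The authors' choice of control and any spike-in scaling before calling were not tested.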
